A study of Drosophila melanogaster with 11 samples.

Results

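The 10 genes described here encode the main proteins of the thick and thin filaments of muscle in Drosophila melanogaster. They were taken by gene symbol, with no measured value in the rule, though earlier results of these data were known at the time. They make up 10 of the 17753 genes in the files. Polyadenylated RNA was sequenced from whole Oregon-R embryos, a wild-type strain with no treatment or transgene, in 4 windows of age given as hours after egg deposition. The 2–4 h window had 3 libraries, the 14–14.5 h window 2, the 14–17 h window 4 and the 17–17.5 h window 2, each from an independent collection of embryos, so p-values measure the spread between collections. The 14–17 h embryos come from an egg lay of 3 h and range in age from the first of the narrow windows up to the start of the second. Libraries held 14472809 to 38904916 estimated counts. The shallowest of the 11 was 2–4 h replicate 2, and the other 10 held at least 29917410.

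In the sarcomere, bundles of myosin form the thick filament, which pulls on the thin filament of actin. The myosin heavy chain carries the motor, and an essential and a regulatory light chain bind to its neck. In insect muscle the thick filament also has a core of paramyosin. On the thin filament, tropomyosin lies along actin and is held in place by troponin, whose T subunit binds tropomyosin, whose I subunit inhibits contraction and whose C subunit binds calcium. Body wall muscles of the fly embryo are built and begin to contract late in embryogenesis. A whole embryo also holds many other tissues, so fewer muscle cells and less RNA per muscle cell cannot be told apart in these levels.

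The thick filament genes are Mhc (myosin heavy chain, FBgn0264695), Mlc1 (essential light chain, FBgn0002772), Mlc2 (regulatory light chain, FBgn0002773) and Prm (paramyosin, FBgn0003149). On the dm6 assembly, Mhc lies at chr2L:16766566-16788766 on the plus strand, with 37 exons and 21 annotated transcripts. Mlc1 lies at chr3R:27657078-27660177, Mlc2 at chr3R:30171438-30174551 and Prm at chr3L:8732858-8745310, all on the minus strand. The thin filament genes include the tropomyosins Tm1 (FBgn0003721), at chr3R:15278220-15308779, and Tm2 (FBgn0004117), at chr3R:15310193-15315197. Both run on the plus strand and are neighbours. Troponin T is encoded by up (upheld, FBgn0004169) at chrX:13593474-13602578 and troponin I by wupA (wings up A, FBgn0283471) at chrX:18105568-18116922, both on the minus strand. Troponin C comes from TpnC47D (FBgn0010423) at chr2R:11273845-11275286 on the minus strand and TpnC73F (FBgn0010424) at chr3L:17046063-17048390 on the plus strand. In the annotation used here, Tm1 overlaps 2 annotated genes of the opposite strand, CG45218 and l(3)neo43. The library protocol is not described as keeping strand, so strand would not tell reads of these genes apart where they overlap. The deposited length of Tm1, 27409 bp, is shorter than its span of 30560 bp in that annotation. The overlap may therefore be absent from the gene model that was counted. The other 9 genes overlap no annotated gene. All 110 estimated counts of the 10 genes were whole numbers (within 1e-06), so they show no fraction of a read split with another gene.

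At 14–17 h, compared with 2–4 h, all 10 genes rose. The comparison sets late embryos with formed tissues against early ones. Of the 10, 9 rose by 7.80 to 8.43 on the log2 scale. Tm1 rose by 1.53. The call was edgeR's quasi-likelihood test on the 7 libraries with Benjamini-Hochberg adjustment over all 11623 genes tested and a threshold of 0.05. Most genes moved in this comparison. Of all genes tested, 48.2% were called higher and 42.4% lower, so the count of calls alone says little of these 10 genes beside the size of the change. The median change of the 10 genes was 8.02, beside 0.19 for all genes tested (log2). With DESeq2, run without the filter on low counts, the median of all genes was 0.40. With RLE factors in edgeR, on the same 11623 genes, it was 0.28.

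**Figure D1:**
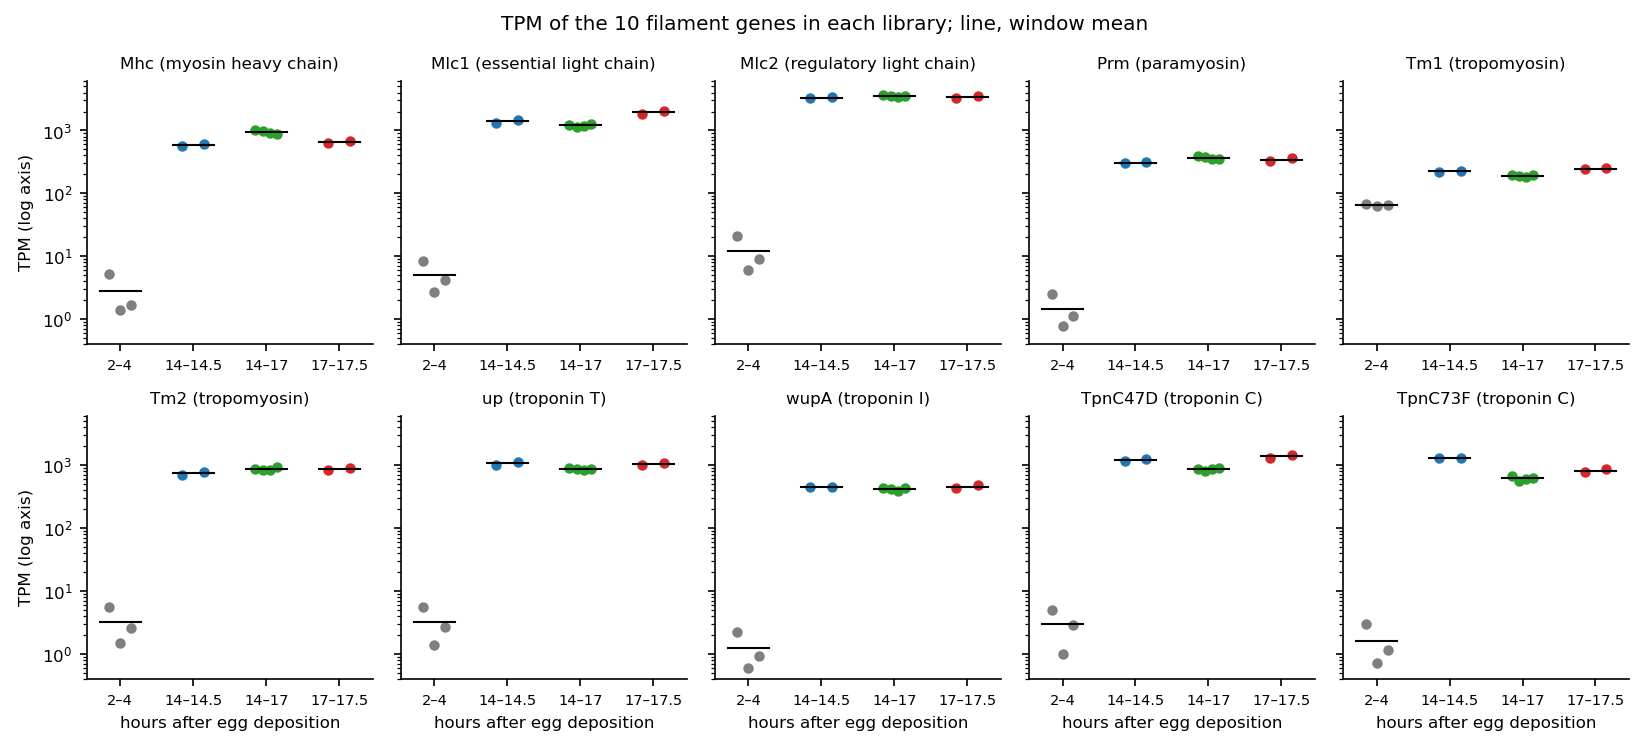
TPM (log axis) of each filament gene in each of the 11 libraries, by window in hours after egg deposition. Points are libraries and lines are window means. Every gene but Tm1 lies at or below 21.0 TPM in each 2–4 h library and at or above 306 TPM in each later library, while Tm1 lies between 63.5 and 67.0 TPM at 2–4 h and between 181 and 254 TPM later.

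Levels are given as deposited in TPM, a gene's share of the library scaled to the length of the gene. Mhc had 1020.1, 978, 899 and 873 TPM in the 14–17 h libraries, against 5.26, 1.41 and 1.70 TPM in the 2–4 h libraries. The groups were far apart, and 2–4 h replicate 1 stood above both other early libraries. The log2 fold change of Mhc was 8.35 (SE 0.58, adjusted p = 2.77e-07, edgeR). Mlc2, the highest of the 10 in each late window, had 3693, 3548, 3449 and 3477 TPM at 14–17 h, against 21.0, 6.08 and 9.18 TPM at 2–4 h. Its log2 fold change was 8.14 (SE 0.50, adjusted p = 9.55e-08, edgeR). Its mean at 14–17 h of 3542 ± 109 TPM (SD, n = 4) was rank 27 among all genes.

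The other light chain, Mlc1, had 1212, 1133, 1185 and 1273 TPM at 14–17 h, against 8.39, 2.73 and 4.22 TPM at 2–4 h, a log2 fold change of 7.80 (SE 0.41, adjusted p = 2.93e-08, edgeR). Prm, the paramyosin of the filament core, had 395, 373, 358 and 350.3 TPM at 14–17 h, against 2.52, 0.787 and 1.13 TPM at 2–4 h. Its log2 fold change was 7.89 (SE 0.44, adjusted p = 4.75e-08, edgeR). No early library of a thick filament gene came near a late one.

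Among the regulatory proteins of the thin filament, up (troponin T) had 912, 887, 848 and 879 TPM at 14–17 h, against 5.57, 1.40 and 2.68 TPM at 2–4 h. The inhibitory subunit, wupA, had 429, 415, 387 and 443 TPM at 14–17 h, against 2.20, 0.599 and 0.928 TPM at 2–4 h. Their log2 fold changes were 8.03 (SE 0.51) for up and 8.31 (SE 0.47) for wupA, with adjusted p-values of 1.24e-07 and 5.57e-08 (edgeR). Both troponin C genes moved with them. TpnC47D had 870.1, 810.0, 861 and 901 TPM at 14–17 h, against 5.05, 1.001 and 2.93 TPM at 2–4 h. TpnC73F had 687, 569, 601 and 628 TPM at 14–17 h, against 3.02, 0.730 and 1.16 TPM at 2–4 h. The early values of these short genes rest on few reads, from 8 to 84 per library for TpnC47D and from 10 to 86 for TpnC73F. The log2 fold change was 8.01 (SE 0.35, adjusted p = 8.18e-09, edgeR) for TpnC47D and 8.43 (SE 0.38, adjusted p = 1.05e-08, edgeR) for TpnC73F.

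The 2 tropomyosin genes, which lie next to each other, did not start from the same level. Tm2 behaved like the rest, with 876, 854, 835 and 949 TPM at 14–17 h, against 5.67, 1.52 and 2.61 TPM at 2–4 h (log2 fold change 7.99, SE 0.46, adjusted p = 6.63e-08, edgeR). Tm1 had 193, 189, 181 and 193 TPM at 14–17 h, against 67.0, 63.5 and 65.8 TPM at 2–4 h (log2 fold change 1.53, SE 0.10, adjusted p = 2.27e-07, edgeR). Tm1 is known to give rise to cytoplasmic tropomyosins as well as muscle ones, and the files hold 1 value for the whole gene, so its 18 annotated transcripts were not resolved. In TPM, Tm1 was the highest of the 10 genes at 2–4 h and the lowest in all 3 later windows. In estimated counts, which are not divided by gene length, Tm1 was again the highest at 2–4 h but rank 4 in each later window.

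**Figure D2:**
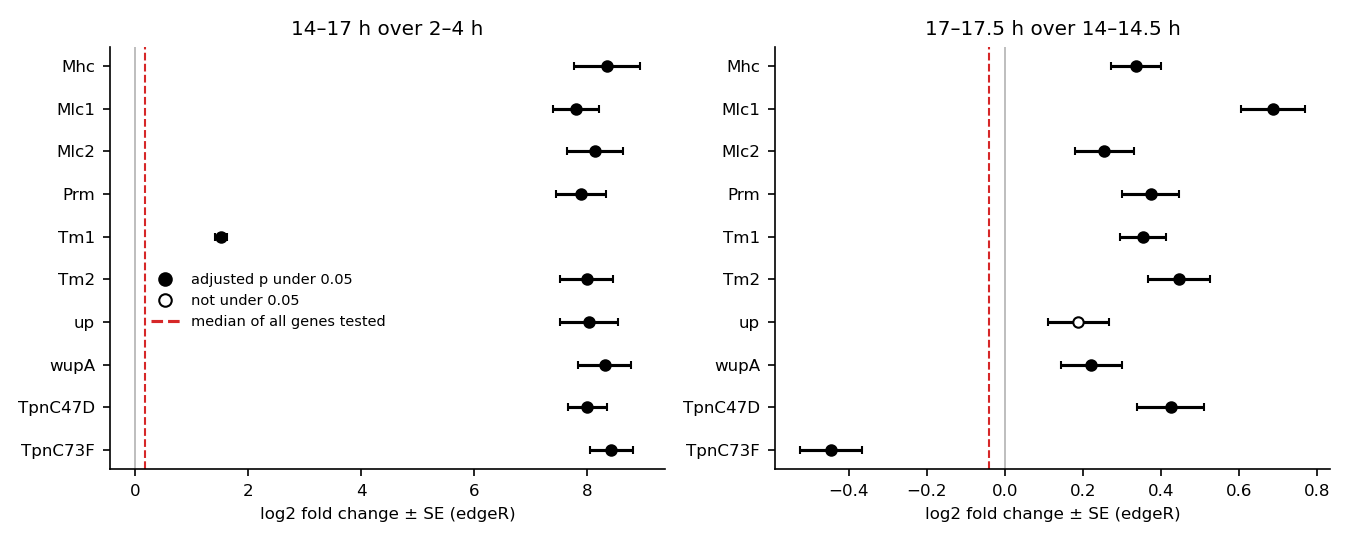
Log2 fold change ± standard error (SE) of each filament gene from edgeR, for 14–17 h over 2–4 h (left) and 17–17.5 h over 14–14.5 h (right, on a narrower scale). Filled points had an adjusted p under 0.05 and dashed lines are the median of all genes tested. Tm1 stands alone at 1.53 on the left, and TpnC73F alone below 0, at -0.45, on the right.

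The low early level of the 9 genes other than Tm1 was a similarly small share of the late level from gene to gene. In 2–4 h replicate 1 these genes stood at 0.486% to 0.699% of their mean TPM at 14–17 h. In replicate 2 the share was 0.116% to 0.228%, and in replicate 3 it was 0.180% to 0.352%. Within replicates 2 and 3 the share differed between genes by close to 2 times, and replicate 1 lay above both other libraries for every one of the 9. Tm1, by contrast, stood at 35.4%, 33.6% and 34.8% of its 14–17 h level in replicates 1, 2 and 3.

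In counts scaled to the library total (CPM), replicate 1 held 2.40 to 3.36 times the mean of the other 2–4 h libraries for these 9 genes, and 1.03 times for Tm1. Replicate 1 was at least 1.5 times both other early libraries for 9 of the 10 genes, and for 7.16% of all genes tested. For 1205 genes the median ratio to that mean was 1.81. These were called higher, with a log2 fold change above 6 and counts in replicate 2 or 3. The median was 1.01 over the 11116 tested genes with such counts. Among 8 genes of the Z-disc and titin-like list with at least 10 TPM at 14–17 h, the ratio ran from 1.08 (Zasp52) to 3.49 (Mlp60A, a muscle LIM protein), except for Mlp84B, another muscle LIM protein, which had 0 counts in all 3 early libraries. Among 6 neuronal and glial markers it ran from 0.964 (elav) to 1.60 (Syt1). What set replicate 1 apart was not tested. Without replicate 1, the log2 fold changes of the 9 genes were 8.39 to 9.26, against 7.80 to 8.43 with it. Without replicate 2 they were 7.52 to 8.16. All 10 genes were called higher without any single library.

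**Figure D3:**
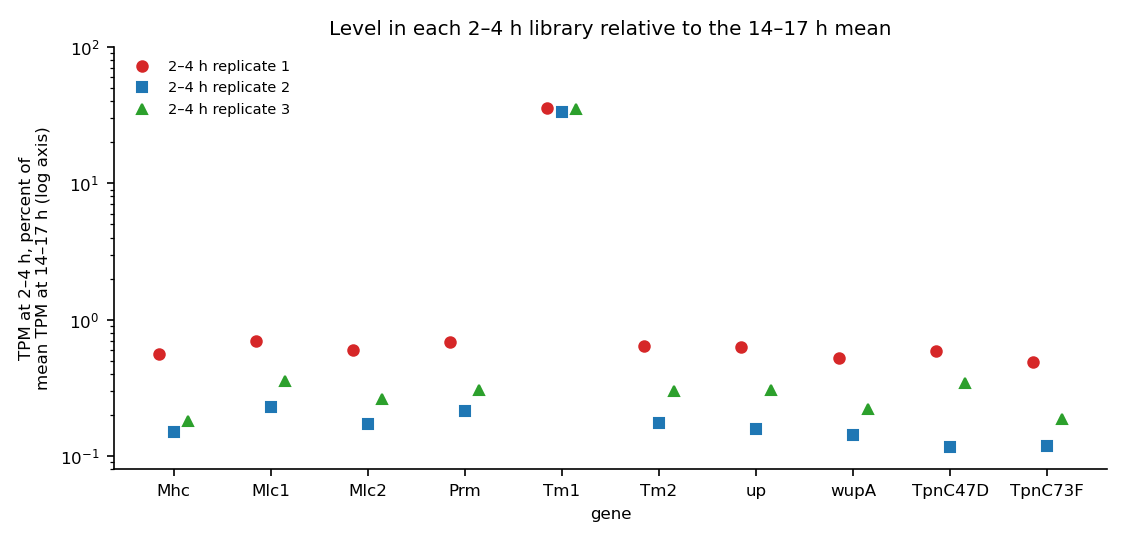
TPM of each filament gene in each 2–4 h library, as a percent of the mean TPM of that gene at 14–17 h (log axis). For the 9 genes other than Tm1, replicate 1 lies between 0.486% and 0.699% and replicates 2 and 3 lie below it, while Tm1 lies between 33.6% and 35.4%.

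The 10 genes together took 2.75%, 2.63%, 2.68% and 2.62% of all estimated counts in the 14–17 h libraries, against 0.0940%, 0.0810% and 0.0834% in the 2–4 h libraries. At 2–4 h most of this share was Tm1, which alone held 768 to 790.3 CPM. At 17–17.5 h the share was 2.63% and 2.85%, against 2.38% and 2.53% at 14–14.5 h, a gap of 0.28 percentage points between the means, with no overlap (SD 0.162 and 0.105, n = 2 each). As a share of TPM these windows overlapped.

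The second comparison set 17–17.5 h against 14–14.5 h, when embryonic muscles are maturing, and asks whether the filament genes still change. The changes were small, from -0.45 to 0.69 on the log2 scale. By edgeR's quasi-likelihood test on the 4 libraries, 8 of the 10 genes rose, beside 32.0% of all 11267 genes tested, and TpnC73F fell, beside 31.5% of all genes. The remaining gene, up, had a log2 fold change of 0.19 (SE 0.08, adjusted p = 0.0807, edgeR). These calls are not firm. With all 11 libraries in one fit 1 of the 10 was called, Tm1, and without 14–14.5 h replicate 1 only 4 were, Mlc1, Tm1, Tm2 and TpnC73F. The median change of the 10 genes was 0.35, beside -0.04 for all genes tested.

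Scaling matters at this size. In the deposited TPM the median of all genes shifted to -0.21 on the log2(TPM + 1) scale, so that differences read from TPM are lower than those of the fit. In TPM, every 17–17.5 h library lay above every 14–14.5 h library for 6 of the 10 genes, beside 30.4% of all genes, and below for 1, beside 55.7%. In CPM with TMM scaling, the same held for 9 genes above, beside 40.1% of all genes, and 1 below, beside 43.5%. With limma on log2(TPM + 1), 1 gene, Mlc1, was called higher and 1, TpnC73F, lower, and the log2 change of up turned to -0.02.

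The largest change by the edgeR fit was that of Mlc1, while in TPM that of TpnC73F was larger (-0.66 against 0.47 with limma on log2(TPM + 1)). Mlc1 had 1838 and 2025 TPM at 17–17.5 h, against 1329 and 1455 TPM at 14–14.5 h, with no overlap, and a log2 fold change of 0.69 (SE 0.08, adjusted p = 0.000691, edgeR). Its partner on the myosin neck, Mlc2, had 3228 and 3592 TPM at 17–17.5 h, against 3250.0 and 3380 TPM at 14–14.5 h. These overlap in TPM, and the fitted log2 fold change was 0.26 (SE 0.08, adjusted p = 0.028, edgeR), a call lost when 14–14.5 h replicate 1 or 2 or 17–17.5 h replicate 2 was left out.

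TpnC73F was the one gene of the 10 that fell. It had 781 and 859 TPM at 17–17.5 h, against 1298 and 1292 TPM at 14–14.5 h, a log2 fold change of -0.45 (SE 0.08, adjusted p = 0.00397, edgeR). Its paralogue TpnC47D rose, with 1323 and 1461 TPM at 17–17.5 h, against 1161 and 1244 TPM at 14–14.5 h (log2 fold change 0.43, SE 0.09, adjusted p = 0.00625, edgeR). The TpnC47D call was lost without 14–14.5 h replicate 1, while that of TpnC73F was past the threshold without any single library.

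Mhc had 626 and 669 TPM at 17–17.5 h, against 575 and 615 TPM at 14–14.5 h, and a log2 fold change of 0.34 (SE 0.06, adjusted p = 0.00489, edgeR). Prm, Tm1 and Tm2 had log2 fold changes of 0.37, 0.35 and 0.45, with adjusted p-values of 0.00558, 0.0029 and 0.00392 (edgeR). The call of Mhc was lost without 14–14.5 h replicate 1, and that of Prm without 14–14.5 h replicate 1 or 2. Those of Tm1 and Tm2 passed without any single library. The smallest of the called changes was that of wupA, which had 433 and 479 TPM at 17–17.5 h, against 456 and 451 TPM at 14–14.5 h. Its log2 fold change of 0.22 (SE 0.08) had an adjusted p of 0.0488 (edgeR), which was lost without 14–14.5 h replicate 1 or 2 or 17–17.5 h replicate 2.

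The ratio of 2 genes within a library does not depend on scaling. The ratio of TpnC47D to TpnC73F counts was 0.989 and 0.993 at 17–17.5 h, against 0.522 and 0.562 at 14–14.5 h. The windows did not overlap. Per length the level of TpnC47D in deposited TPM was above that of TpnC73F at 17–17.5 h (1392 ± 97.9 and 819.9 ± 55.3 TPM, SD, n = 2), and below it at 14–14.5 h (1203 ± 58.9 and 1295 ± 4.36 TPM). In log2 units the difference was 0.87, and the exact permutation test over libraries, two-sided, gave p = 0.333, the smallest that 2 libraries against 2 allow. The ratio of Mlc1 to Mlc2 counts was 0.567 and 0.561 at 17–17.5 h, against 0.407 and 0.428 at 14–14.5 h, again with no overlap, a log2 difference of 0.43 (exact permutation p = 0.333). For Tm2 to Tm1 it was 0.619 and 0.635 at 17–17.5 h, against 0.568 and 0.608 at 14–14.5 h. The ratio of wupA to up overlapped between these windows.

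At 14–17 h the ratio of Tm2 to Tm1 counts was 0.802, 0.796, 0.816 and 0.869, against 0.0149, 0.0042 and 0.0070 at 2–4 h. It had a log2 difference of 6.75 and an exact permutation p of 0.0571, the smallest that 4 libraries against 3 allow. The other ratios moved far less, by -0.37 in log2 units for TpnC47D to TpnC73F, where the early ratios of 0.977, 0.80 and 1.47 rest on few reads, by -0.36 for Mlc1 to Mlc2 and by 0.29 for wupA to up. In this family of 4 ratios in 2 comparisons the lowest adjusted p was 0.152, and no ratio could reach 0.05 in either design.

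**Figure D4:**
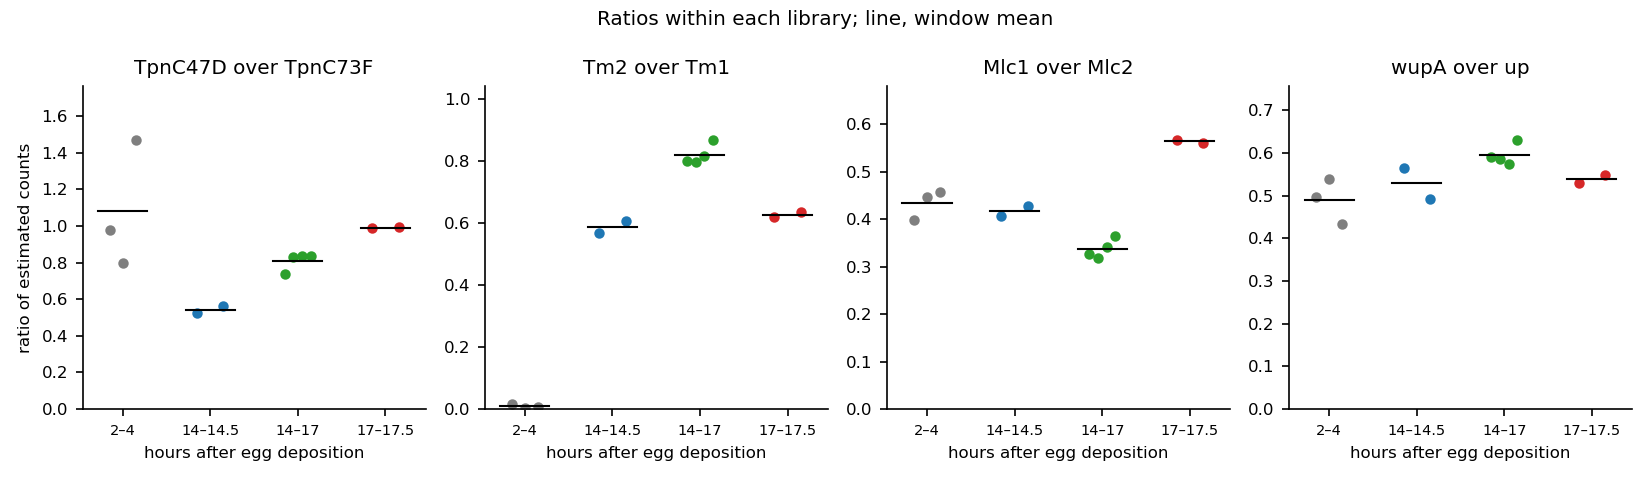
Ratio of estimated counts of 2 filament genes within each library, by window in hours after egg deposition. Points are libraries and lines are window means. The ratio of TpnC47D to TpnC73F lies at 0.522 and 0.562 at 14–14.5 h, between 0.739 and 0.838 at 14–17 h and at 0.989 and 0.993 at 17–17.5 h.

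Because the 14–17 h window fills the time between the starts of both narrow windows, its level could be set beside theirs. This comparison was chosen after the data had been seen. By edgeR on the 6 libraries of each pair, Mhc was higher at 14–17 h than at 14–14.5 h (log2 fold change 0.61, SE 0.09) and than at 17–17.5 h (0.30, SE 0.09). By contrast Mlc1, Tm1, up, TpnC47D and TpnC73F were lower at 14–17 h than in both narrow windows. TpnC73F, for example, was lower than at 14–14.5 h by a log2 fold change of -1.11 (SE 0.10) and than at 17–17.5 h by -0.63 (SE 0.11).

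In numbers, 1 of the 10 genes was higher at 14–17 h than at 14–14.5 h, beside 30.5% of all genes, and 5 were lower, beside 28.5%. Set against 17–17.5 h, 1 was higher, beside 32.3% of all genes, and 6 were lower, beside 31.7%. With all 11 libraries in one fit, none was called higher in either pair (0 of 10), and 2 and 4 were called lower. The share of TPM taken by the mitochondrial gene mt:lrRNA moved with this split, at 10.02% to 12.2% in the 14–17 h libraries, against 5.89% to 6.49% in the narrow windows. It was also high in the 2–4 h libraries, at 12.5%, 14.8% and 11.1%. Window, collection and sequencing run cannot be told apart here. The ratio of TpnC47D to TpnC73F at 14–17 h, from 0.739 to 0.838, lay between the values of the 2 narrow windows, and that of Mlc1 to Mlc2, from 0.318 to 0.364, lay below both.

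The order of the levels among the genes depends on the length used. The deposited TPM counts the length of the whole gene with its introns, of which exons make up 17.4% for wupA and 73.4% for Mlc2. For Tm1 the deposited length of 27409 bp is shorter than the span of 30560 bp in the annotation used here, so its exonic length comes from another gene model than its deposited TPM. Exonic length here is the union of the exons of all annotated transcripts of a gene. It is 9804 bp for Tm1 and 2530 bp for up, whose longest transcripts have 3054 and 1696 bp. For Mlc2 both are 2286 bp. Levels over a single transcript were not computed, and their order could differ. With TPM recomputed over this exonic length, Mlc2 was still highest at 14–17 h, with 3885 ± 97.0 TPM (SD, n = 4). Prm and Tm1 were still the lowest, with 726 ± 34.1 and 451 ± 12.2 TPM. The troponin T gene up was second, with 2670 ± 64.4 TPM over exonic length, while it was rank 4 over the span. The next 3, Mlc1 at 2120 ± 113, wupA at 2030 ± 112 and Mhc at 1969 ± 128 TPM over exonic length, differ from their neighbour in this order by less than their spread. Tm2 followed with 1390 ± 82.6 TPM, and TpnC47D and TpnC73F, with 1164 ± 58.2 and 1074 ± 86.7 TPM, were again about a spread apart. In all, 7 of the 10 genes changed rank.

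**Figure D5:**
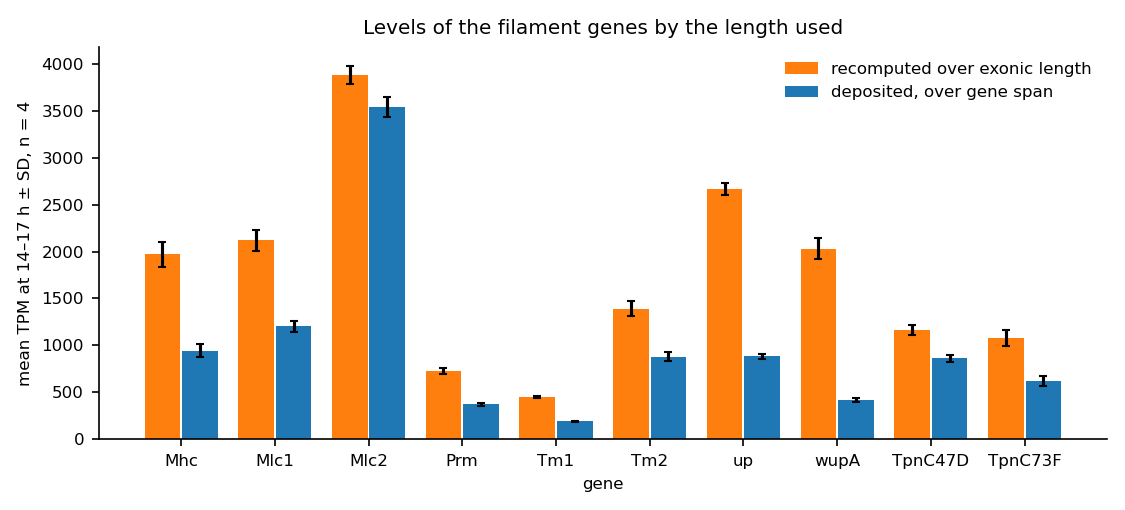
Mean TPM ± SD of the filament genes in the 4 libraries at 14–17 h, recomputed over exonic length (orange) and as deposited over the span of the gene (blue, for Tm1 a shorter span than in the annotation). The largest fold between the lengths is in wupA, where exons take 17.4% of the span, and Mlc2 is the highest with either length.

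Over exonic length Mlc2 stood above the heavy chain in all 3 late windows, and Mlc1 only in the narrow ones by more than the spread. Mlc2 had 2.93 ± 0.06 times the level of Mhc at 14–14.5 h (SD, n = 2), 1.98 ± 0.09 times at 14–17 h (n = 4) and 2.76 ± 0.08 times at 17–17.5 h (n = 2). Mlc1 had 1.98 ± 0.03 times the level of Mhc at 14–14.5 h, 1.08 ± 0.12 times at 14–17 h and 2.52 ± 0.05 times at 17–17.5 h. Among the troponin subunits, up had 1.49 ± 0.14 times the level of wupA at 14–14.5 h, 1.32 ± 0.05 times at 14–17 h and 1.45 ± 0.03 times at 17–17.5 h. The 2 troponin C genes together had 1.76 ± 0.05, 1.10 ± 0.06 and 1.49 ± 0.01 times the level of wupA in the same 3 windows. All of these ratios rest on the same union of exons, so they depend on which transcripts are annotated.

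The other genes of the sarcomere moved the same way as the 10 between 2–4 h and 14–17 h. Of 10 other filament genes tested, all 10 were higher at 14–17 h, with a median log2 fold change of 4.24. For this list and the next ones, the share of all genes called higher was 48.2%. The highest was Mf (myofilin, a thick filament protein, 7.55, SE 0.34), and the lowest tmod (tropomodulin, which caps thin filaments, 1.10, SE 0.10). Mean levels of the tested genes of this list at 14–17 h ran from 1.05 TPM (Act88F) to 14412 TPM (Act57B), so the lowest were near the floor. Both of these actin genes had counts that were not whole at 2–4 h, so their values are uncertain. Of the same list TpnC4 is listed at 0 in every library. Of 8 tested genes of the Z-disc, where thin filaments are anchored, and of titin-like proteins, all 8 were higher, with a median of 6.997. Zasp52, a PDZ-LIM protein of the Z-disc, was the lowest of these at 2.81 (SE 0.14). Mlp84B had 447 ± 23.1 CPM at 14–17 h and 0 counts in all 3 libraries at 2–4 h. Taking 3 counts per library as the floor, it was at least 3363-fold higher. This floor covers counting error only, not an error in assigning reads to genes, so the fold is uncertain. Every other tested gene of this list had counts in each 2–4 h library, and why Mlp84B had none was not tested. Of 6 genes for coupling excitation to contraction, all 6 were higher. They ran from SERCA, the calcium pump of the sarcoplasmic reticulum (2.52, SE 0.14), to SclA, a small peptide that regulates that pump (8.51, SE 0.33). SclA and SclB share 1 locus and had identical counts, so they count as 1 measurement.

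Non-muscle actomyosin genes went the other way, with 9 of 9 tested lower at 14–17 h than at 2–4 h, beside the 42.4% of all genes. Their median was -0.74, from tsr (twinstar, the actin-severing cofilin, -1.43, SE 0.08) to Cam (calmodulin, -0.39, SE 0.10). Not all of them were below 2–4 h in the narrow windows. Cam had a mean of 239 TPM at 2–4 h, 273 at 14–14.5 h and 391 at 17–17.5 h, while tsr had 898, 423 and 349 TPM. Among mesoderm and muscle transcription factors 3 of 8 were higher and 3 lower. Hand, a factor of the heart, was highest with 3.44 (SE 0.21), and tin (tinman), needed early for dorsal mesoderm, lowest with -4.10 (SE 0.13). Of 6 neuronal and glial markers, 5 were higher, led by the synaptic vesicle protein Syt1 with 7.67 (SE 0.20), while the neuronal RNA-binding protein elav had 0.05 (adjusted p = 0.566, edgeR). Like those of Act57B and Act88F, some 2–4 h counts of elav, Syt1, Cam, Act5C, Mf, TpnC25D, Zasp52, Zasp66, nau and bcd were not whole. Values of these genes are uncertain to that extent. All 8 early embryo markers were lower, from bcd (bicoid, -0.57, SE 0.16) to Kr (Krüppel), which had 0 counts in all 4 libraries at 14–17 h. By the same floor Kr was at least 2175-fold lower. Its counts at 2–4 h were not whole, so some of its reads were split with another gene. The floor does not cover an error in that split, so this fold is uncertain. Early markers also differed among the late windows. For bcd the 14–17 h mean was 21.1 TPM, while the earlier and the later narrow window had 5.49 and 8.67 TPM. For slam, another early marker, it was 15.3 TPM, beside 6.23 and 6.79 TPM. Of 6 early markers tested, 3 were called higher at 14–17 h than at 14–14.5 h and 2 lower (edgeR). Set against 17–17.5 h, 2 were higher and 2 lower. Why these markers differed was not tested.

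Between the narrow windows, 5 of the 10 other filament genes were higher at 17–17.5 h and 2 lower, and 4 of the 8 Z-disc and titin-like genes were higher and none lower (0 of 8), beside 32.0% higher and 31.5% lower of all genes. With all 11 libraries in one fit, 3 of the filament list were higher and 1 lower, and without 14–14.5 h replicate 1 or 2 or 17–17.5 h replicate 1 again 1 was lower. Without 17–17.5 h replicate 2, 2 of the Z-disc list were lower. Several moved by more than the 10 filament genes did. Zasp66 had a log2 fold change of 2.74 (SE 0.09), Zasp52 of 1.90 (SE 0.09) and Unc-89, the obscurin of the M-line, of 1.55 (SE 0.08). Mf had 1.38 (SE 0.08) and TpnC25D, another troponin C gene, 1.26 (SE 0.09), all with adjusted p-values of 8.48e-05 or below (edgeR). Act5C, a cytoplasmic actin, had 1.39 (SE 0.04). The transcription factors tin, HLH54F and nau (nautilus, the fly MyoD) had -1.98 (SE 0.40), -1.69 (SE 0.11) and -1.56 (SE 0.16), and 7 of the 8 on that list were lower, beside 31.5% of all genes. Without 14–14.5 h replicate 1 this count was 4, with the call of tin among those lost, and with all 11 libraries in one fit it was 5.

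The mean of log2(CPM + 1) over the 10 genes, with TMM scaling, was compared with every other gene over the 11 libraries, as a description. The 5 genes most like it among 9615 others with at least 100 estimated counts on average were nAChRalpha1, a subunit of the nicotinic acetylcholine receptor, vkg (viking, a collagen IV chain), Rim, a protein of the presynaptic active zone, CG43897 and CG11151, with Pearson r of 0.9988 to 0.9991. The likeness sets few genes apart, since 699 genes had an r above 0.99 and the 11 libraries fall into an early and a late cluster. Only 1 of the 5 was among the first 5 with log2(CPM + 0.1), and none (0 of 5) over the 8 late libraries alone. Of the 10 filament genes themselves, wupA was nearest to their mean (0.9999) and Tm1 farthest (0.966).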

How the data were processed

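Whole-embryo libraries were assigned to windows and replicates from their labels. For each library the authors ran kallisto on reads trimmed to 50 bp against dm6 gene annotation and deposited its estimated count of every gene, with a TPM value beside it. The deposited lengths equal the gene span for 17502 of 17625 annotated genes. Estimated counts that were not whole made up 19.4% to 22.2% of a library's values. Counts were rounded and tested with edgeR 4.0.16 (R 4.3.3, filterByExpr, TMM, quasi-likelihood F-test, Benjamini-Hochberg over all genes tested, two-sided, threshold 0.05). The SE is the absolute log2 fold change over the square root of F. Alternatives used DESeq2 1.42.0, limma 3.58.1 on log2(TPM + 1) or log2(TPM + 0.1), RLE factors, no filter, all 11 libraries, a replicate block and each library left out. Single ratios were tested by exact permutation over libraries (scipy 1.17.1). Exonic lengths, the union of the exons of all transcripts of a gene, came from Ensembl release 115 and 57 of 59 list genes were found. Figures used matplotlib 3.10.9.

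The 10 genes and the gene lists were chosen with earlier results of these data known. Named besides the 10 are the highest and lowest of each list at 14–17 h against 2–4 h, any called with a log2 change over 1 between the narrow windows, and the 5 most similar genes. Genes named as examples outside this rule (Mlp60A, SclB, TpnC4, Act57B, Act88F, slam, mt:lrRNA) were picked after their values were seen. The fits were tested on simulated data with planted changes larger than any of the 10 genes showed between the narrow windows. That test does not cover calls of the smaller size. Sequencing instrument and run per library are not given in the sources used here.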

Additional observations from a re-analysis of the deposited data

Results flagged for a closer look

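Within the 4 libraries at 14–17 h, the log2 ratio of TpnC47D to TpnC73F counts in replicate 1 was -0.4359, and its gap to the nearest of the other 3 was 0.938 of the whole range, above Dixon's critical value for 4 values. This was 1 of 17 quantities looked at (the TPM of each gene, 3 summed shares and 4 ratios), and chance flags about 1 in 20 groups. In that library TpnC73F had the highest TPM of the 4, at 687.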

How the results depend on the processing

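At 14–17 h against 2–4 h, 10 of the 10 genes were called higher and 0 lower under all 14 alternatives, with log2 fold changes of 1.44 to 1.62 for Tm1 and 7.28 to 9.26 for the other 9. The difference in their summed share, 2.58 percentage points, was 0.98 as a share of TPM and 2.79 without genes of the mitochondrial genome in the total, and 2.56 to 2.60 with each library left out.

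At 17–17.5 h against 14–14.5 h, the 9 calls (8 higher, 1 lower) became 1 (1 higher, 0 lower) with all 11 libraries in the fit, where the 2–4 h libraries share the estimate of the spread, and 2 (1 higher, 1 lower) with limma on log2(TPM + 1) or log2(TPM + 0.1). With each library left out, 4 to 10 genes were called, 3 to 9 of them higher and 1 lower. The cause was not tested. The log2 change of up was 0.19, but -0.02 with limma on either TPM scale, and that of SclA was -0.01 there. For elav at 14–17 h against 2–4 h it was 0.05, -0.03 with all 11 libraries and -0.04 to 0.06 with each library left out. The change of tsr was -0.07, and -0.11 to 0.02 with each library left out, while the log2 ratio of wupA to up changed by 0.03, and by -0.07 to 0.13 with each library left out. The difference in summed share of 0.28 percentage points was 0.06 as a share of TPM (0.058), and 0.168 to 0.397 with each library left out.

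For the added comparisons with 14–17 h, all 11 libraries in one fit left 0 genes higher in both pairs and 2 lower than at 14–14.5 h, against 1 higher in each and 5 lower with 6 libraries. In fits that took the replicate number as a block, calls numbered 10 at 14–17 h against 2–4 h, and 9 at 17–17.5 h against 14–14.5 h, with up called and wupA not. Libraries of the same number did not deviate together (correlations of 0.06, -0.05 and 0.09, and -0.03), so the numbers do not pair them. With 2 libraries a window, leave-one-out fits assume that the lone library varies like the others. Few reads limit the 2–4 h values of the troponin C genes.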
